A study of Mus musculus with 2 samples.

Results

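Dividing mesenchymal cells made up 314 of the 17129 cells that passed the limits on depth, 83 of 9036 in the library from mice given gambogic amide (GA) and 231 of 8093 in the control library. The cells were chosen by their own counts. A member had 500 to 140000 unique molecular identifiers (UMIs, each 1 captured RNA molecule), 200 to 9500 genes and a mitochondrial share of at most 15%. Col1a1, Col1a2 and Col3a1 together took at least 1% of its UMIs, S100a8 and S100a9 under 1%, and Bglap and Bglap2 under 0.5%. It held at most 5 UMIs of Ptprc and Csf1r, at least 2 of Pdgfra and Prrx1, and at least 10 of Mki67, Top2a and Ube2c. Another 2416 cells, 791 with GA and 1625 in control, met every condition except the last and are called other mesenchymal cells here.

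The cells came from the area of a 1.8 mm defect drilled in the frontal bone of male C57BL/6J mice aged 2 months, collected 7 days after injury as a piece of bone about 3 mm across around the defect, digested with collagenase and profiled by 10x Genomics 3′ single-cell RNA-seq. GA, a small molecule, was injected into the peritoneum at 1.2 mg/kg in 100 µL of 10% DMSO, by the labels, from 24 hours before injury and then daily for 1 week. Control mice received 10% DMSO alone. Each condition is 1 library pooled from 5 mice, so no test between conditions was possible, and each interval given below is a 95% interval that covers counting error only.

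A cell that divides first copies its DNA in S phase, when licensing factors such as the MCM proteins open replication origins and enzymes such as ribonucleotide reductase supply nucleotides. In G2 and mitosis the B-type cyclins and Cdk1 drive entry into division, kinesins and centromere proteins move the chromosomes, and the anaphase-promoting complex, of which Ube2c is the ubiquitin-conjugating enzyme, ends mitosis. In a healing bone defect, mesenchymal cells multiply before they form matrix, and cyclin-dependent kinase (CDK) inhibitors such as Cdkn1c hold resting cells out of the cycle.

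The 3 genes that define division here lie on different chromosomes of the mm10 mouse genome. Mki67 (ENSMUSG00000031004), the Ki-67 protein that coats mitotic chromosomes, spans chr7:135689784-135716361. Top2a (ENSMUSG00000020914), the topoisomerase that untangles replicated DNA, spans chr11:98992943-99024189. Ube2c (ENSMUSG00000001403) spans chr2:164769898-164778822. The 150 bases before the RefSeq start (build GRCm38.p6, 5′ to 3′ in the direction of the gene) are shown for 2 of them and for Mcm5, a subunit of the replicative helicase that stands for the S phase genes, because the motifs in them differ. Capitals mark TTTGAA (the CHR element, found before many mitotic genes), CCAAT (the CCAAT box) and the E2F-type letters TTTGGCGC, each on either strand, so ATTGG is the reverse of the second motif, TTCAAA that of the first and GCGCCAAA that of the last. TTTCCCGC, another E2F-type motif, was searched too and is in none of the 3 stretches. The Mki67 stretch is chr7:135716380-135716529 on the minus strand, that of Top2a is chr11:99024190-99024339 on the minus strand, and that of Mcm5 is chr8:75109359-75109508 on the plus strand.
Mki67: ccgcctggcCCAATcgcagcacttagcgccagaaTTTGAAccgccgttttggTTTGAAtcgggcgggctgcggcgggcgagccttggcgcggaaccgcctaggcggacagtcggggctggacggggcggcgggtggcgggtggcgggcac
Top2a: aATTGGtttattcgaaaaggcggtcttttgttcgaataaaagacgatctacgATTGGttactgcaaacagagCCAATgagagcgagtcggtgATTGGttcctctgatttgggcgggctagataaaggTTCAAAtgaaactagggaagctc
Mcm5: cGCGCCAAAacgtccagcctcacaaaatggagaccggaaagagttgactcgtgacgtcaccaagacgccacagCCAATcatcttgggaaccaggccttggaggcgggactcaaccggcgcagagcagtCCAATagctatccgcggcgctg

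Mki67 held TTTGAA 116 and 98 bases before its start, and Top2a held the reverse form 23 bases before its start and the forward form 179 bases before it, outside the printed stretch. Ube2c, not printed, held the reverse form 29 bases before its start. Mcm5 held none, and had GCGCCAAA 149 bases before its start. Over the 250 bases before each start, TTTGAA on either strand was present for 21 of the 56 G2/M genes with an entry (37.5%), 6 of the 39 S phase genes with an entry (15.4%) and 18.3% of all 27025 genes in the RefSeq table. CCAAT on either strand was present for 76.8% of the G2/M genes, 66.7% of the S phase genes and 37.5% of all genes. TTTGGCGC or TTTCCCGC, again on either strand, was present for 9 of 39 S phase genes (23.1%), 2 of 56 G2/M genes (3.57%) and 1.51% of all genes. The motifs were searched separately. A match describes the letters in the window and is not evidence of binding.

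Detection of the markers follows from the rule. Mki67 was detected in 82 of 83 GA members and 230 of 231 control members, Top2a in 72 and 224, Ube2c in 81 and 225, and Col1a1, the main chain of bone and skin collagen, in all of them. These are values that the cells were selected on and were not tested. Mki67, Top2a and Ube2c together reached a median of 49 UMIs per GA member (10 to 247) and 61 per control member (10 to 281), or 7.01 and 8.27 per 10000 UMIs. The 3 collagens took a median of 4.49% of a GA member's UMIs and 4.25% of a control member's, against 6.62% and 6.23% in other mesenchymal cells. Just inside the minimum, 9 GA and 16 control cells had 10 to 12 UMIs of the 3 genes. Just outside it, 4 GA and 16 control cells had 8 or 9. Per 10000 UMIs, the 3 genes had medians of 1.39 with GA and 1.67 in control just inside, and 3.49 and 1.26 just outside. The median depths were 76739 and 59905 UMIs just inside, and 34029 and 63717 just outside. The few GA cells just outside were thus shallower and, for their depth, richer in the 3 genes.

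Members were deeper than other mesenchymal cells. They held a median of 79252 UMIs (26952 to 138734) with GA and 83143 (6509 to 138308) in control, where other mesenchymal cells held 48806 and 48924, and the members summed to 6631356 and 19000311 UMIs. After each cell was thinned to 10000 UMIs, which left out 1 control member, members still showed a median of 3441 genes with GA and 3428 in control against 3144 and 3129 in the other cells (8128 and 8280 against 6636 and 6470 unthinned). Doublet scores moved with membership. Leaving out the highest Scrublet scores, at 0.8% per 1000 barcodes, took out 17 of 83 GA members and 59 of 231 control members, against 91 of 791 and 106 of 1625 other mesenchymal cells. The part of doublets in the results was not tested beyond leaving these cells out. The 2 libraries shared 23 barcodes, and 1 GA member had a barcode that also occurs in the control library.

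The dividing share of mesenchymal cells was 9.50% with GA (83 of 874, exact Clopper-Pearson interval 7.63 to 11.6%) and 12.4% in control (231 of 1856, 11.0 to 14.0%), a ratio of 0.763 (0.602 to 0.968). As a share of all cells within the limits, members were 0.919% with GA and 2.85% in control, a ratio of 0.322 (0.251 to 0.413). The second ratio also carries the smaller share of mesenchymal cells in the GA library. From 20000 UMIs upward the share was larger in deeper cells in both libraries, and the minimum is itself a number of UMIs. Between 40000 and 60000 UMIs it was 4.92% with GA and 4.82% in control, between 60000 and 80000 UMIs 12.7% and 16.5%, between 80000 and 100000 UMIs 30.0% (20.3 to 41.3%) and 39.9% (32.6 to 47.5%), and above that 36.2% and 49.5%. The intervals of the 2 libraries overlapped in every range of depth. The ratio stayed below 1 under every alternative tried, from 0.663 to 0.847, but its interval reached past 1 when cells were thinned to 10000 UMIs (0.810, 0.645 to 1.02), when only cells of at least 20000 UMIs were used (0.795, 0.627 to 1.01) and when the highest doublet scores were left out (0.847, 0.646 to 1.11).

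**Figure D1:**
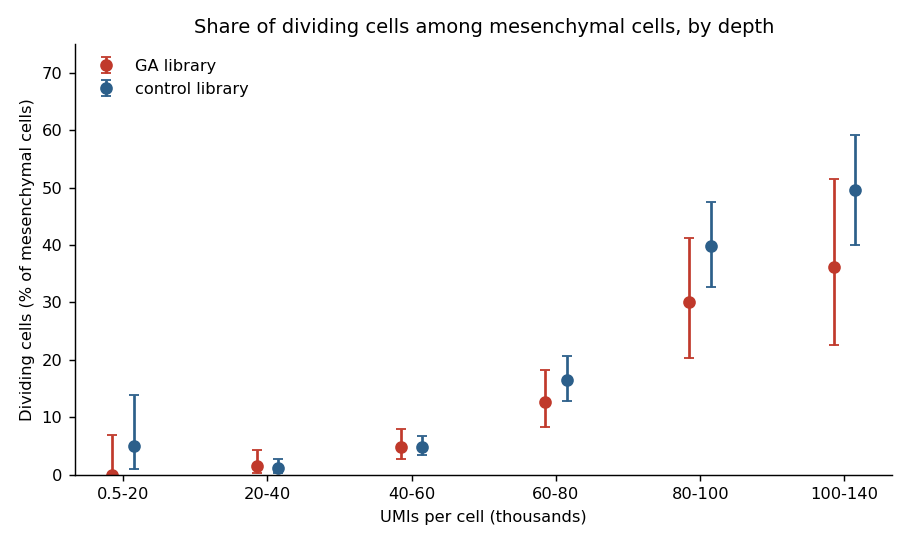
Dividing cells as a percent of mesenchymal cells (y axis) in 6 ranges of UMIs per cell (x axis), for the GA library (red) and the control library (blue), with exact 95% intervals. The share is larger in deeper cells from 20000 UMIs upward, and the control points lie above the GA points from 60000 UMIs upward, with overlapping intervals.

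Members held more UMIs of both the S phase and the G2/M genes than other mesenchymal cells. In cells thinned to 10000 UMIs, the 53 genes of the S phase list summed to a median of 15 UMIs per GA member and 23 per control member, and the G2/M list without the 3 genes of the rule to 59 and 56. Other mesenchymal cells had medians of 4 and 6 in both libraries. The S phase sum was above the G2/M sum in 18 of 83 GA members (21.7%) and 54 of 230 control members (23.5%), and in 27.5% and 26.2% of other mesenchymal cells, so this share does not set members apart. Both sums were under 20 UMIs in 739 of 777 other mesenchymal cells with GA and 1548 of 1605 in control, and in 0 and 3 of the members.

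**Figure D2:**
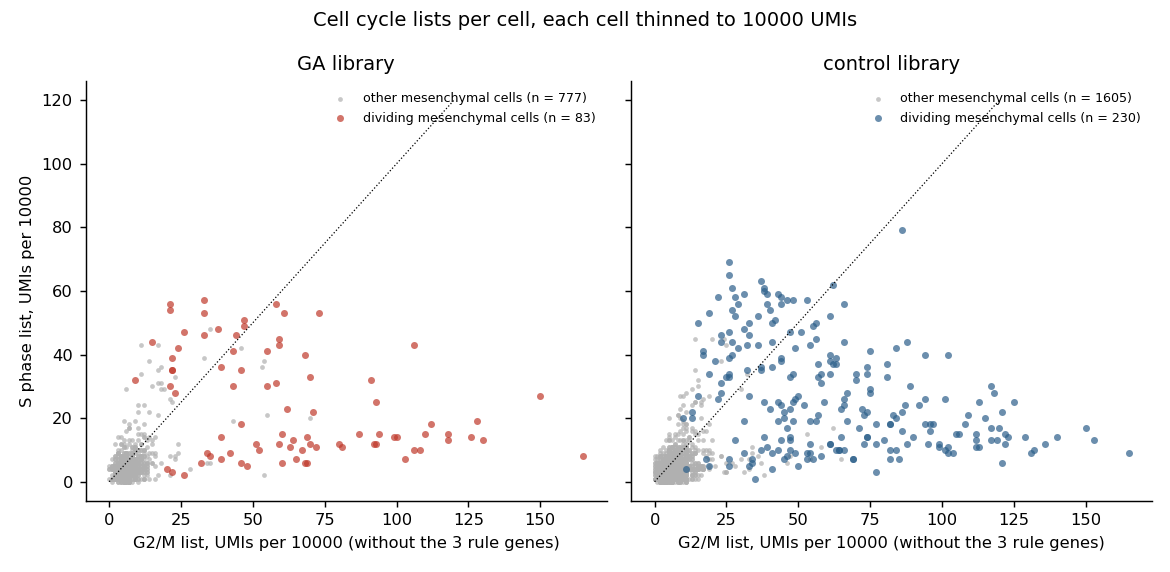
Summed UMIs of the S phase list (y axis) against those of the G2/M list without Mki67, Top2a and Ube2c (x axis) for each cell thinned to 10000 UMIs, GA library left and control library right. Colored points are dividing mesenchymal cells and grey points other mesenchymal cells, the dotted line marks equal sums, and most members lie below it while the grey cells gather near the origin.

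Across 12848 genes with at least 200 UMIs over all mesenchymal cells of both libraries, 627 (4.88%) were at least 2-fold higher in members than in other mesenchymal cells in both libraries, and 600 (4.67%) were at least 2-fold lower in both. Members were selected on cell cycle genes, so the excess of cell cycle genes among those higher is a description of the choice. By sign alone, 47.6% of the 12848 genes were higher in members in both libraries and 35% lower in both, and the counts of list genes given below stand beside these shares. All levels below are UMIs per 1000000 UMIs (CPM) of the summed cells, and ratios are log2 ratios of CPM.

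Of the S phase list, 53 of 53 genes were higher in members in both libraries and 51 at least 2-fold, with a median log2 ratio of 2.32 with GA and 2.77 in control. The median over all 12848 genes was 0.07 and 0.08. Pcna, the sliding clamp of the replication fork, stood at 151 CPM in GA members and 158 in control members against 55.9 and 51.2 in other cells. Mcm5 was at 56.4 and 54.4 CPM against 6.96 and 5.21. Rrm1, the large subunit of ribonucleotide reductase, was at 120 and 132 CPM against 26.6 and 19.7, Dut, which keeps uracil out of DNA, at 130 and 159 against 33.0 and 36.0, and Nasp, a histone chaperone, at 133 and 147 against 53.1 and 49.6. The 2 libraries gave the same order of members over others for each of these genes.

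Of the G2/M list, 65 of 66 genes were higher in members in both libraries and 63 at least 2-fold, with medians of 4.83 and 4.86. The exception was Pttg1, the securin that guards sister chromatids, with log2 ratios of -0.07 with GA and 0.29 in control. Top2a stood at 294 and 349 CPM in members against 3.92 and 4.16 in other cells, Ube2c at 342 and 332 against 2.94 and 3.04, and Mki67 at 263 and 277 against 3.70 and 3.93. Among genes that the rule did not name, Hmgb2, a chromatin protein, was at 484 and 479 CPM against 38.7 and 35.0, Tubb4b, a tubulin, at 384 and 326 against 136 and 104, and Cks2, a partner of the CDKs, at 300 and 305 against 32.5 and 35.5. The levels of the mitotic genes varied widely from member to member. Ccnb1 ran from 0 through a median of 0.704 to 3.77 UMIs per 10000 in GA members and from 0 through 0.643 to 4.91 in control members, while H2afz, the histone variant H2A.Z, was found in every member (median 10.9 and 11.2).

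Outside the cell cycle and chromatin lists, the 15 genes with the highest ratio in both libraries had a smaller per-library ratio between 5.78, for Melk, and 7.34, for Hist1h1b. Hist1h1b, Hist1h2ap, Hist1h2ab and Hist1h1a are histones of S phase. Hist1h2ap stood at 536 CPM in GA members and 850 in control members against 4.57 and 5.41 in other cells, and Hist1h1b at 162 and 263 against 0.997 and 1.23. Such histone mRNAs mostly lack the poly(A) tail that 3′ capture uses, so these values cover only the captured part. Esco2, which sets cohesin in S phase, had log2 ratios of 6.68 with GA and 7.33 in control, Neil3, a DNA glycosylase, 6.74 and 6.30, and Aspm, a spindle pole protein, 5.99 and 5.94. The others were the kinases Pbk and Melk, the kinesins Kif14, Kif18b and Kif4, Depdc1a, Sgo2a, which protects centromeric cohesin, and Iqgap3.

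The cyclins and CDK inhibitors set members apart in both directions. Cdkn1c, the CDK inhibitor p57 of resting and differentiating cells, stood at 46.4 CPM in GA members and 52.0 in control members against 240 and 321 in other mesenchymal cells, a log2 ratio of -2.37 and -2.63. In cells thinned to 10000 UMIs it was detected in 24.1% and 20.9% of members against 55.5% and 60.5% of the others (57.8% and 51.5% against 74.7% and 77.5% unthinned). In dividing Ptprc-positive cells, blood cells that should have little of it, the thinned share was 1.76% and 2.85%. Ccnd2 was also lower in members (90.3 and 83.4 CPM against 157 and 153), whereas Ccnd1, which like Ccnd2 couples growth signals to the cycle, was slightly higher (38.6 and 46.2 against 30.2 and 33.6). The cyclins Ccne1 and Ccne2 were higher by 1.22 to 2.85 on the log2 scale, and the cyclins Ccna2, Ccnb1 and Ccnb2 by 3.44 to 6.10. Of the INK4 inhibitors, Cdkn2c and Cdkn2d were higher in members (61.1 and 55.1 CPM against 15.1 and 15.8, and 65.9 and 62.4 against 10.4 and 10.5). Cdkn1a, the p53 target p21, was lower by CPM (159 and 149 CPM against 247 and 194). Its share of thinned cells was close, 59.0% and 55.2% of members against 61.5% and 54.7% of the others (94.0% and 90.9% against 83.1% and 78.8% unthinned). In all, 19 of 26 genes of this list were higher in members in both libraries, 13 of them at least 2-fold, and 3 were lower in both.

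Dividing blood cells carried a different mix of D-type cyclins. Cells with at least 10 UMIs of the same 3 genes, a UMI of Ptprc (the leukocyte antigen CD45), none of Pdgfra and Prrx1 and under 1% of the 3 collagens numbered 1151 with GA and 619 in control, with median depths of 35245 and 26485 UMIs. Ccnd3 stood at 232 and 278 CPM in them and at 55.6 and 52.6 in dividing mesenchymal cells, a log2 ratio of -2.06 (-2.21 to -1.91) with GA and -2.40 (-2.50 to -2.31) in control. Ccnd1 and Ccnd2 lay the other way, with ratios of 2.03 and 1.15 for Ccnd1 and 1.18 and 1.00 for Ccnd2. Cdk6 was lower in dividing mesenchymal cells (159 and 149 CPM against 263 and 246) and Cdk4 slightly higher (176 and 161 against 145 and 136). E2f2, an E2F factor, was at 7.69 and 6.11 CPM against 76.6 and 95.9. Ccnb1 and Cdk1 differed by less, with log2 ratios of -0.00 and -0.16 for Ccnb1 and -0.14 and -0.07 for Cdk1. The S phase list was lower in dividing mesenchymal than in dividing Ptprc-positive cells in both libraries for 48 of 53 genes (median -0.81 and -0.88) and the G2/M list for 46 of 66 (-0.38 and -0.50), where 49.6% of all 12188 genes with at least 200 UMIs over these cells were. Both groups were gated on the same number of UMIs at different depths, and the part of depth in these ratios was not tested.

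**Figure D3:**
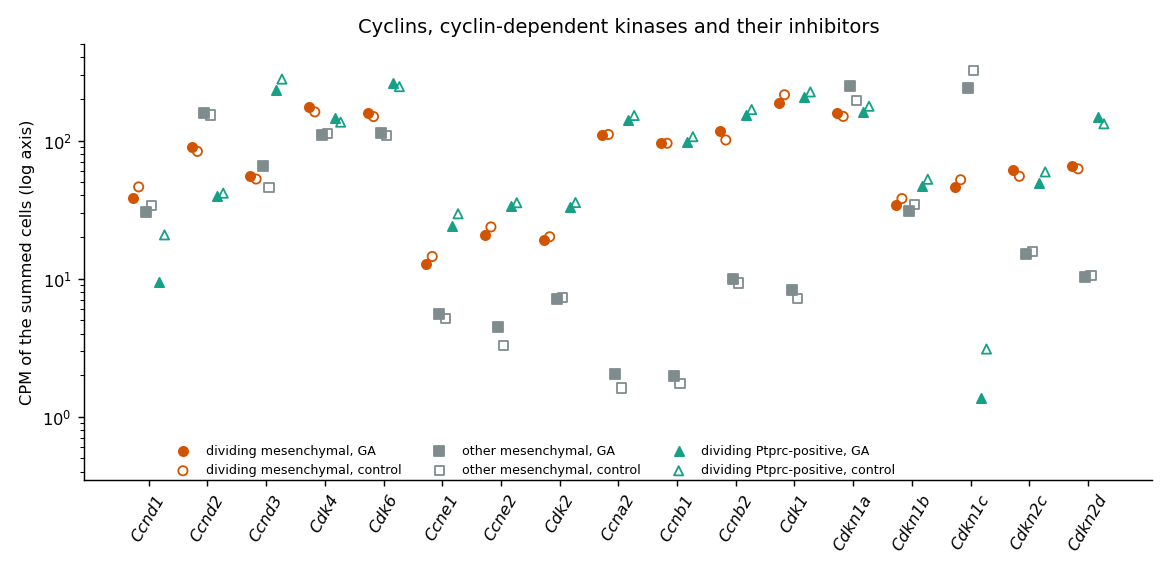
Level of 17 cyclins, CDKs and CDK inhibitors (y axis, CPM of the summed cells, log axis) in dividing mesenchymal cells (orange circles), other mesenchymal cells (grey squares) and dividing Ptprc-positive cells (green triangles), filled for the GA library and open for control. Ccnd3 is highest in dividing Ptprc-positive cells, Cdkn1c in other mesenchymal cells, and Ccna2, Ccnb1 and Ccnb2 are high in both kinds of dividing cells.

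Genes of growth were higher in members by smaller steps. Of 17 genes of ribosome biogenesis, 16 were higher in both libraries, with a median log2 ratio of 0.61 and 0.56, and only Dkc1, the pseudouridine synthase dyskerin, passed 2-fold in both, at 49.0 and 45.6 CPM against 23.0 and 21.7 (log2 ratios of 1.09 and 1.07). Npm1, the nucleolar protein nucleophosmin, stood at 1040 and 1148 CPM against 686 and 790, and Ncl, nucleolin, at 469 and 464 against 277 and 297. Myc itself was lower (54.3 and 49.1 CPM against 75.4 and 78.6). Of 16 glycolysis genes, 12 were higher and 4 lower in both libraries (median 0.59 and 0.65). Gapdh was at 1391 and 1387 CPM against 872 and 839, Pkm at 678 and 705 against 420 and 387, and Ldha at 653 and 687 against 387 and 378. Hk2, the first enzyme of glucose use, lay the other way, at 145 and 177 CPM against 348 and 431.

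**Figure D4:**
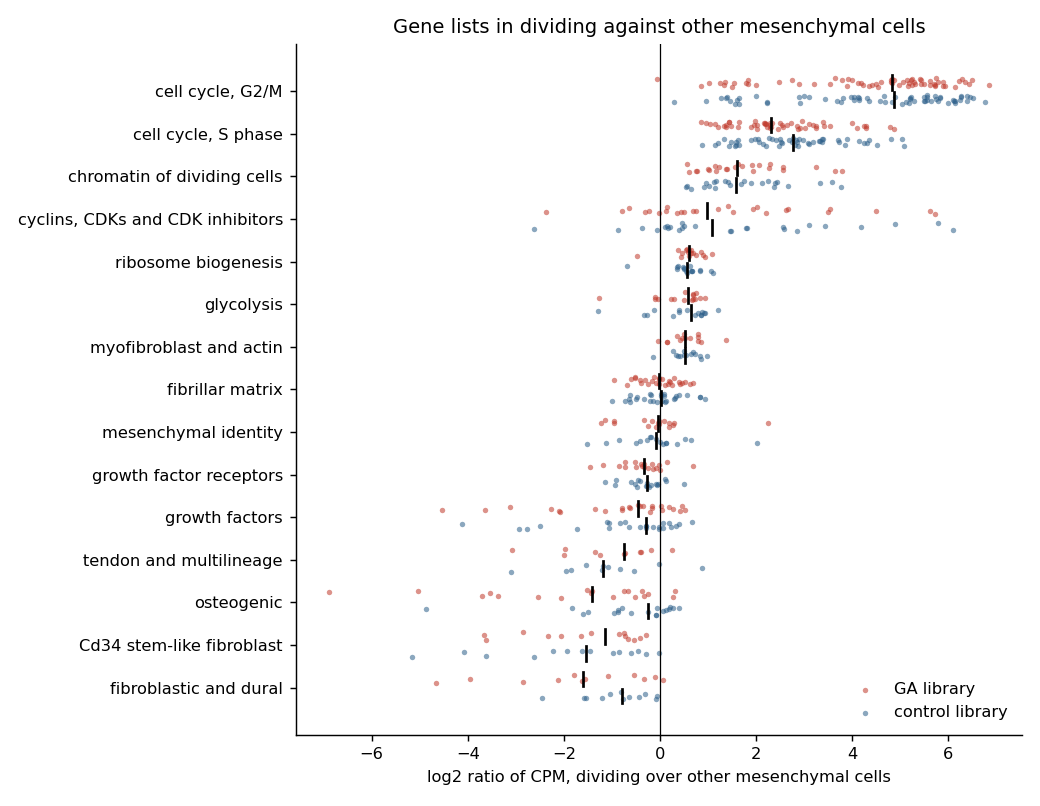
The log2 ratio of CPM in dividing over other mesenchymal cells (x axis) for every gene of 15 lists with at least 200 UMIs (rows), in the GA library (red) and the control library (blue), with black bars at the medians. The cell cycle lists lie far to the right, growth and actin lists have medians between 0.51 and 0.65, and the Cd34 and dural lists lie to the left.

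Matrix genes went both ways in members. Without Col1a1, Col1a2 and Col3a1, which the rule used, the other 25 fibrillar matrix genes summed to 37484 and 36985 CPM in GA and control members against 43279 and 42994 in other mesenchymal cells. Of the 28 fibrillar matrix genes, 13 were higher and 13 lower in members in both libraries, none of them 2-fold, and the medians were -0.01 and 0.02. Apart from the collagens of the rule (Col1a1 17636 and 15866 CPM against 25145 and 24670, a count that the choice used), Sparc, a collagen-binding protein, stood at 10591 and 9848 CPM against 14014 and 13856. Tnc, tenascin-C of wounds, was higher in members (1370 and 2284 CPM against 851 and 1198), as were Loxl2, a collagen crosslinker (748 and 840 against 484 and 472), and Col6a3 (1584 and 1665 against 1207 and 1366). Dcn, the small proteoglycan decorin of mature matrix, was lower (2143 and 1717 CPM against 4132 and 3406). The 14 genes of the myofibroblast and actin list were higher in members for 13, with medians of 0.51 and 0.52, and none reached 2-fold in both libraries. Acta2, smooth muscle actin, stood at 729 CPM in GA members and 1253 in control members against 422 and 705, and Vim, vimentin, at 6231 and 6532 against 4322 and 4510. In thinned cells Acta2 was detected in 86.7% and 88.7% of members against 44.0% and 55.6% of the other cells, and in 2.64% and 5.70% of dividing Ptprc-positive cells (96.4% and 99.1%, 60.9% and 74.0% and 11.0% and 13.9% unthinned). Among mesenchymal cells with an Acta2 UMI after thinning, 17.4% (13.9 to 21.4%) were dividing with GA and 18.6% (16.3 to 21.0%) in control.

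By summed CPM, nearly all genes of the Cd34-positive fibroblast list and of the fibroblastic and dural list were lower in members. All 14 genes of the list for Cd34-positive fibroblasts, the adventitial cells described as stem-like, were lower in both libraries, 7 of them at least 2-fold, with medians of -1.14 and -1.53. Pi16 stood at 17.8 and 3.37 CPM in members against 226 and 120 in other cells, C3, the complement component, at 25.0 and 13.1 against 310 and 219, and Clec3b at 50.7 and 19.1 against 365 and 235. Cd34 itself differed less (256 and 205 CPM against 428 and 250) and was detected in 69.9% and 62.2% of thinned members against 69.8% and 49.3% of the others (90.4% and 79.2%, 80.3% and 63.9% and 20.8% and 13.7% unthinned, with dividing Ptprc-positive cells last), where thinned dividing Ptprc-positive cells had 10.9% and 7.37%. Ly6a, of the list for Cd34-positive fibroblasts, was detected in 86.7% and 69.6% of thinned members against 81.6% and 57.9% of the others. Unthinned, these were 97.6% and 87.0% against 89.5% and 72.4%. Thy1, a stem cell marker of the study, was in 74.7% and 75.2% of thinned members against 65.1% and 54.1% of the others. Its unthinned shares were 95.2% and 94.8% against 87.1% and 83.4%. Of 12 fibroblastic and dural genes, 11 were lower in both libraries and 5 at least 2-fold, with medians of -1.59 and -0.78. Eln, elastin, stood at 7.69 CPM with GA and 143 in control against 119 and 428, and Mgp, the matrix Gla protein that blocks calcification, at 157 and 775 against 1138 and 2242. Among thinned mesenchymal cells with an Eln UMI, 3.35% (1.24 to 7.15%) were dividing with GA and 5.93% (4.17 to 8.15%) in control.

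Most bone and tendon genes were lower in members. Of 19 osteogenic genes, 13 were lower and 2 higher in both libraries, with medians of -1.42 and -0.25. Runx2, the transcription factor that opens the osteoblast program, was near its level in other cells (258 and 331 CPM against 213 and 318), and was detected in 75.9% and 80.0% of thinned members, against 64.2% and 71.1% of other mesenchymal cells and 27.2% and 24.5% of dividing Ptprc-positive cells (100% and 98.7%, 88.2% and 92.3% and 52.4% and 42.2% unthinned). Sp7, the osterix factor of committed osteoblasts, had 13 UMIs over the GA members and 64 over the control members, and 2 of 83 and 5 of 230 thinned members held it (2.41% and 2.17%, against 2.83% and 2.74% of the others, and 8.43% and 9.52%, 6.45% and 6.71% and 0.348% and 0.323% unthinned). Of 1138 GA and 597 control dividing Ptprc-positive cells that could be thinned, 0 held a Sp7 UMI, which by a floor of 3 counts allows up to 0.264% and 0.503% of such cells with a UMI at the thinned depth (0.324% and 0.616% by the exact interval) and sets no limit for deeper cells. Dmp1, a marker of osteocytes, had 1 and 2 UMIs over the members and stood at 18.0 and 3.07 CPM in the other cells. The rule keeps cells rich in Bglap, a marker of mature osteoblasts, out of both groups. Of 11 genes of the tendon and multilineage list, 9 were lower in both libraries and none was higher, with medians of -0.75 and -1.18. Thbs2, an antiangiogenic matrix protein, was at 602 and 610 CPM against 793 and 889, Fmod, fibromodulin, at 92.6 and 104 against 153 and 239, and Itgbl1 at 86.9 and 100.0 against 344 and 359. Scx, the tendon transcription factor scleraxis, was at 9.05 and 11.1 CPM against 7.64 and 19.6.

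The 10 genes lowest in members by the smaller of the 2 ratios included Ntrk2, Ace, Dmp1, Egfl6, Gdf10, Kcnj8, Chrm3, Ptprt and Mmp3. Ntrk2, the receptor of brain-derived neurotrophic factor, had 2 UMIs over the GA members and 7 over the control members, and stood at 18.3 and 13.9 CPM in the other cells, a log2 ratio of -5.93 (-8.97 to -4.07) and -5.23 (-6.55 to -4.19). Ace, the angiotensin-converting enzyme, was at 1.81 and 1.84 CPM against 65.2 and 55.6. Mmp3, the matrix protease stromelysin-1, was at 10.6 and 8.32 CPM against 147 and 252. Of 25 growth factor genes, 15 were lower in both libraries and 4 higher. Igf1, a growth factor of bone, stood at 25.0 and 44.6 CPM against 217 and 305, and Pdgfa lay the other way (55.6 and 90.9 CPM against 41.8 and 57.1). Of 19 growth factor receptors 15 were lower, with Fgfr1 at 327 and 335 CPM against 590 and 635, and Bmpr1b, a bone morphogenetic protein receptor, was higher (153 and 139 against 95.3 and 99.0).

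The chromatin genes stood higher in members, and the other lists not yet described went both ways or lower. All 24 genes of the chromatin list were higher in members in both libraries, 19 at least 2-fold, with medians of 1.60 and 1.57, and Tubb5, a tubulin, stood at 1237 and 1239 CPM against 400 and 369. Of 17 mesenchymal identity genes 6 were higher and 10 lower, with medians of -0.05 and -0.07. Nes, the intermediate filament nestin, was the one gene of that list at least 2-fold higher in both libraries, with ratios of 2.25 and 2.02. Of 9 cartilage genes 2 were higher and 3 lower, and Sox9, the chondrogenic transcription factor, stood at 49.6 and 57.0 CPM against 59.8 and 87.0. Of 9 hedgehog genes 2 were higher and 6 lower, of 5 neurotrophin genes all 5 were lower (medians -2.07 and -1.45), and of 22 interferon-response genes 4 were higher and 13 lower.

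Between conditions, 9201 genes had at least 200 UMIs summed over the members of both libraries. Of these, 74 (0.804%) were at least 2-fold higher with GA and 114 (1.24%) at least 2-fold lower, with no test since there is 1 library per condition. The median log2 ratio, GA over control, was -0.01, with the lower decile at -0.30 and the upper at 0.27. The 74 had a median of 1.30 in members and 1.00 in other mesenchymal cells, and the 114 had -1.32 and -0.72. Both kinds of cells come from the same 2 libraries, so their values are given side by side and not as independent support. For 15 of the 74 genes and 19 of the 114, the 5 cells richest in the gene held at least 50% of its UMIs in the higher library.

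By CPM of the summed cells, the cell cycle genes of members stood close between conditions. Per cell, the S phase list had a lower median with GA, 1572 CPM against 2386 in control members, but the spreads overlapped widely. The 10th and 90th percentiles were 831 and 4922 CPM with GA and 907 and 4973 in control. Summed over the cells, the list stood at 2570 and 2730 CPM. The G2/M list had per-cell medians of 6924 and 6600 CPM. None of the 52 S phase genes, 66 G2/M genes, 25 cyclin and CDK genes or 24 chromatin genes listed was 2-fold apart, and their medians were -0.08, -0.02, -0.08 and -0.0037. Over all 9201 genes, 0.804% were at least 2-fold higher and 1.24% at least 2-fold lower, with a median of -0.01. These counts and medians therefore do not set the lists apart. The 3 genes of the rule are among the 66, and their values, which the choice of cells used, are a description: Mki67 had a log2 ratio of -0.07 (-0.15 to 0.00), Top2a of -0.25 (-0.32 to -0.18) and Ube2c of 0.04 (-0.03 to 0.11). Of the S phase genes 15 of 52 were higher with GA, where 48% of all 9201 genes were, while in other mesenchymal cells 46 of the 52 were higher with GA, with a median of 0.22, where 52.6% of the same 9201 genes were. Of the G2/M genes 29 of 66 were higher with GA in members, against 43 in other mesenchymal cells (median 0.11). These differences between members and other cells were not tested. Tyms, thymidylate synthase, had -0.33 (-0.47 to -0.20) and Dut -0.29 (-0.40 to -0.18), and the histones Hist1h1b and Hist1h2ap had -0.70 (-0.80 to -0.61) and -0.67 (-0.72 to -0.61). On the mitotic side values went both ways. Cdk1 had -0.19 (-0.28 to -0.10), while Cenpa, the centromeric histone, had 0.32 (0.23 to 0.41), Cdc20, an activator of the anaphase-promoting complex, 0.27 (0.15 to 0.39) and Aurka, a spindle kinase, 0.38 (0.17 to 0.58).

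Interferon-response genes were higher with GA for 18 of 18 listed, 9 of them at least 2-fold, with a median of 1.03. Of all 9201 genes, 48% were higher with GA and 0.804% at least 2-fold higher. Ifit1, an interferon-induced RNA sensor, stood at 71.6 CPM in GA members and 16.4 in control members, a log2 ratio of 2.12 (1.92 to 2.34), Irf7, a transcription factor of type I interferon genes, at a ratio of 2.07 (1.85 to 2.28) with 444 UMIs over the GA members and 304 over the control members, Isg15, a ubiquitin-like modifier, at 280 and 94.6 (1.57, 1.47 to 1.66), and Bst2, tetherin, at 356 and 150 (1.24, 1.16 to 1.32). Other mesenchymal cells had the same order, with 2.08 for Ifit1, 1.87 for Irf7, 1.66 for Isg15 and 0.97 for Bst2, and a list median of 1.28. Dividing Ptprc-positive cells did not have these ratios, with -0.74 for Ifit1, -0.49 for Irf7, -0.71 for Isg15 and -0.00 for Bst2. Psmb8, another gene of the list, had 0.25 in them. The cause of this difference between cell types was not tested. The values were uneven within a library. Of the 475 Ifit1 UMIs of GA members, 199 lay in 5 cells, and 44 of 83 GA members and 54 of 231 control members held any. With the richest 6% of members left out, 276 GA and 53 control UMIs remained, a ratio of 3.90. Rtp4, another interferon-induced gene, had a ratio of 1.84 and was found in 64 and 119 members.

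Genes of Cd34-positive fibroblasts were also higher with GA, for 13 of 13 listed, with 5 at least 2-fold and a median of 0.54 (0.50 in other mesenchymal cells). The shares over all 9201 genes were 48% higher and 0.804% at least 2-fold higher. Ly6a, the surface antigen Sca-1, stood at 1036 and 469 CPM (log2 ratio 1.14, 1.10 to 1.19), Sfrp2, a Wnt modulator, at 923 and 430 (1.10, 1.06 to 1.15), Dpt, dermatopontin, at 437 and 320 (0.45, 0.38 to 0.51), and Mfap5, a microfibril protein, at 729 and 720 (0.02, -0.03 to 0.07). Cd55, a complement inhibitor, and Dmkn, dermokine, were among the 10 genes highest with GA, at 1.65 and 1.71. In the other mesenchymal cells they had 1.32 and 2.54. Dmkn was concentrated in few cells, with 521 of 1236 GA UMIs in 5 members, and had 2.62 with the richest 6% left out. Gm15675, a gene model without a name, had a ratio of 1.86 and was found in 21 GA and 33 control members. It had 2.84 with the richest 6% left out, from 50 GA and 20 control UMIs.

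The fibroblastic and dural list was lower with GA for 10 of 10 genes, 5 at least 2-fold, with a median of -1.09 (-0.93 in other mesenchymal cells). Of all 9201 genes, 52% were lower with GA and 1.24% at least 2-fold lower. Eln had a log2 ratio of -4.22 (-4.64 to -3.82), was detected in 15 of 83 GA and 88 of 231 control members, and in other mesenchymal cells had -1.84. In dividing Ptprc-positive cells Eln had -2.71, and was detected in 1.74% with GA and 7.59% in control. Mgp had -2.30 (-2.40 to -2.21), and -2.67 in dividing Ptprc-positive cells. Mgp was found in 51 of 83 GA and 191 of 231 control members, and Ogn, another gene of the list, in 69 and 195. The UMIs of Eln and Mgp were uneven between cells. Mgp ran from 0 through a median of 0.138 to 20.4 UMIs per 10000 in GA members and from 0 through 0.317 to 213 in control members. With the 6% of members richest in each gene left out (5 GA and 14 control members), Eln had 12 UMIs with GA and 334 in control, a ratio of -3.28, and Mgp -1.48. The basement membrane collagens Col4a1 and Col4a2 had -3.56 (-3.90 to -3.24) and -3.40 (-3.85 to -2.99) and were found in 9 and 7 GA members against 77 and 71 control members. Nearly all their GA UMIs lay in 5 members, and with the richest 6% left out Col4a1 had 5 UMIs with GA and 896 in control (-5.97) and Col4a2 had 2 and 569 (-6.63). In other mesenchymal cells they had -1.80 and -1.68, and in dividing Ptprc-positive cells -2.94 and -2.31. The part of these differences that the libraries share across cell types was not tested.

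Actin genes were lower with GA for 13 of 14 listed, 3 at least 2-fold, with a median of -0.37 (-0.43 in other mesenchymal cells). The shares over all 9201 genes were 52% lower and 1.24% at least 2-fold lower. Acta2 had -0.78 (-0.83 to -0.74), Tagln, transgelin, -1.31 (-1.40 to -1.22) and Actg2 -1.43 (-1.62 to -1.24). In the other mesenchymal cells these were -0.74, -0.96 and -1.53. Acta2 overlapped widely between the libraries, with a median of 5.46 UMIs per 10000 over GA members (0 to 32.2) and 7.50 over control members (0 to 85.7). Tnc, which stood above its level in other cells in both libraries, had -0.74 (-0.77 to -0.71) between conditions.

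The lists of matrix, identity, growth, bone, tendon and cartilage had medians between -0.48 and 0.24 between conditions. Of 28 fibrillar matrix genes 13 were higher with GA (median -0.01), of 13 identity genes 7 (0.06), of 16 ribosome biogenesis genes 8 (0.0053), of 15 glycolysis genes 2 (-0.07), of 16 growth factor receptors 5 (-0.04), of 10 tendon and multilineage genes 2 (-0.19) and of 4 cartilage genes 3 (0.24). Of 8 osteogenic genes 1 was higher with GA, with a median of -0.48 (-0.15 in other mesenchymal cells). Beside the counts of this paragraph, 48% of all 9201 genes were higher with GA. Runx2 had -0.36 (-0.44 to -0.29) and Spp1, the matrix protein osteopontin, -0.81 (-0.91 to -0.72), with 757 of 1126 GA UMIs and 1418 of 5675 control UMIs in the 5 members richest in it, and Spp1 had -1.47 with the richest 6% left out.

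Several of the largest ratios came from a few control cells. Ibsp, the bone sialoprotein of osteoblasts, had a ratio of -4.81 (-5.40 to -4.27), but 2182 of its 2243 control UMIs lay in 5 members, and with the richest 6% left out 0 GA and 9 control UMIs remained. In other mesenchymal cells it had 0.14. Rgs5, a marker of pericytes, had 3 UMIs with GA and 723 in control (-6.39, -8.68 to -4.84), with 686 of the 723 in 5 members. Slc4a10, a bicarbonate transporter, had -2.31, and -0.32 with the richest 6% left out. Pgf, placental growth factor, was spread over 79 control members and had -2.63 (-3.43 to -1.93), and -2.68 with the richest cells left out. Apold1, Gm13889 and Myo16 had -2.72, -2.64 and -2.36, and -2.17, -2.54 and -2.39 with the richest cells left out.

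Of the hedgehog pathway, which controls bone formation and which the study examined, 8 genes were listed and none was 2-fold apart, with a median of -0.01. Since 0.804% of all 9201 genes were at least 2-fold higher and 1.24% at least 2-fold lower, this does not set the 8 apart. Smo, the signal transducer, had 42.1 and 41.1 CPM (0.04, -0.17 to 0.23), Ptch1, receptor and target, 9.95 and 7.89 (0.33, -0.11 to 0.76), and Gas1, a co-receptor, 191 and 152 (0.33, 0.23 to 0.42). Gli3, a transcription factor of the pathway, had -0.16 (-0.28 to -0.04). Gli1, the most used target gene, had 5 UMIs over the GA members and 17 over the control members, too few to compare. Of 20 growth factors, 16 were lower with GA, where 52% of all 9201 genes were, with a median of -0.42 (-0.42 in other mesenchymal cells). Among them were Hgf at -1.09 (-1.37 to -0.81), Pdgfa at -0.71 (-0.87 to -0.54) and Tgfb2 at -0.20 (-0.27 to -0.13). Immediate early genes, which cell isolation can induce, were lower in members than in other cells for 17 of 18 genes in both libraries. Between conditions 11 of 18 were higher with GA, with a median of 0.38 (0.23 in other mesenchymal cells). Fos, at 1.05 (1.01 to 1.10), was the 1 gene at least 2-fold higher, while Jund had -0.12 and Ier3 -0.27.

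**Figure D5:**
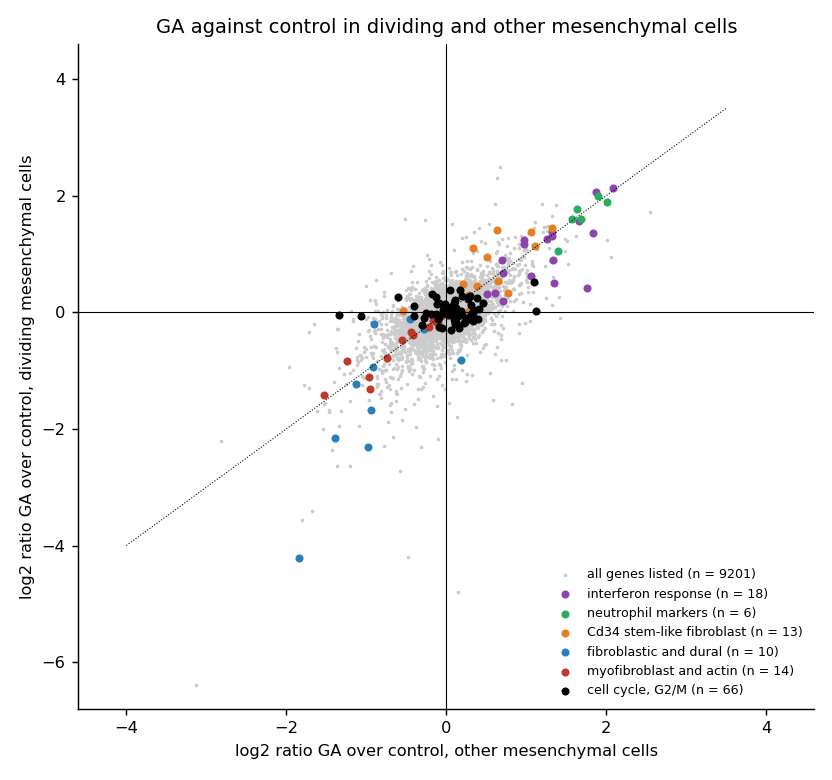
The log2 ratio GA over control in dividing mesenchymal cells (y axis) against the same ratio in other mesenchymal cells (x axis) for the 9201 genes with at least 200 UMIs over the members (grey), with 6 lists in color and a dotted line of equal ratios. Interferon and neutrophil genes lie at the upper right, dural and actin genes at the lower left, and the G2/M genes near 0 on the y axis.

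Markers of neutrophils were higher with GA in members. The 15 neutrophil markers summed to 573 CPM in GA members and 187 in control members, and to almost the same, 572 and 197, in other mesenchymal cells, against 113128 and 99160 in dividing Ptprc-positive cells. S100a9, the most abundant, had a log2 ratio of 1.59 (1.49 to 1.70), and S100a8 (54.3 CPM in control members and 165 with GA), Retnlg (2.00), Lcn2 (1.90) and Ngp (1.76), neutrophil granule or secreted proteins, were among the 10 genes highest with GA. Between members and other mesenchymal cells S100a9 had -0.00 with GA and 0.08 in control. Ptprc had 23 and 32 UMIs over the members (3.47 and 1.68 CPM), a log2 ratio of 1.04 (0.20 to 1.86). The rule kept Ptprc and Csf1r together to at most 5 UMIs per cell, so this ratio is only a description. No UMI of Ptprc and Csf1r was found in 48 of 83 GA and 169 of 231 control members. Of the 15, 6 were listed, and all 6 were at least 2-fold higher with GA, where 0.804% of all genes were. S100a8 and S100a9, which made up most of the sum, are among the 6, and the rule used them as an upper limit on their share. The rule did not use the other 4. The 15 macrophage and monocyte markers summed to 89.0 and 109 CPM, with Lyz2 the most abundant. The lymphocyte markers summed to 11.9 and 16.2 CPM, led by Igkc, and Cd3d and Cd3e were at 0 in both libraries. Endothelial markers summed to 25.2 and 29.8 CPM. Pecam1 led them with GA, where 102 of its 115 UMIs lay in 5 members, and Egfl7 in control (129 UMIs, against 115 of Pecam1). The pericyte and smooth muscle markers summed to 38.9 and 107 CPM with Cspg4 the most abundant. Of 4 pericyte and smooth muscle markers listed, 3 were at least 2-fold lower with GA, where 1.24% of all genes were, with a median of -1.55, but their UMIs lay in few control members. With the richest 6% of members left out, Rgs5 had 0 UMIs with GA and 17 in control, Notch3 7 and 40, and Des, desmin, 11 and 42, and Notch3 and Des were then less than 2-fold apart. Erythroid markers summed to 33.9 and 13.8 CPM, but 124 of 143 GA UMIs of Hbb-bs, the most abundant, lay in 5 members, and with the richest 6% left out its ratio of 1.58 turned to -0.88. Keratinocyte markers summed to 23.5 and 21.9 (Krt10, with Krt1 and Krt5 at 0), Schwann and neuron markers to 44.3 and 40.9 (Tubb3, with Sox10 and Rbfox3 at 0) and osteoclast markers to 278 and 255 (Ctsk, which mesenchymal cells also express, with Calcr and Dcstamp at 0). Progenitor markers of blood summed to 270 and 225 CPM, nearly all of it Cd34, while Kit had 1 and 23 UMIs. The part of these markers in the differences between conditions was not tested.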

How the data were processed

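The authors deposited 1 matrix of UMI counts per library, as whole numbers per gene and barcode, made with Cell Ranger 7.0.1 per the file headers and the mm10 reference. The totals were 182949385 UMIs over 9322 barcodes (GA) and 214993030 over 8718 (control), and no normalization was seen. Limits on UMIs, genes and mitochondrial share follow the study's methods, which give a GA dose of 2 mg/kg for 4 weeks where the labels give 1.2 mg/kg for 1 week.

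Counts were summed over cells and scaled to CPM. The log2 ratios have exact conditional binomial 95% intervals, shares have Clopper-Pearson intervals and ratios of shares log-normal ones. A count of 0 was set to 3 counts. Intervals cover counting error only, and whether mice within a pool differed is unknown. Cells were thinned without replacement (seed 1). Scrublet, run in Scanpy 1.11.5, marked 0 GA and 26 control barcodes (0.321%) by its automatic threshold. As an alternative, the highest scores were left out instead. The study's methods also name Scrublet, and whether doublets were removed before deposit is not given there. The Cell Ranger version in those methods differs from that in the headers. Ratios and intervals were tested on simulated data. Promoters are RefSeq windows of build GRCm38.p6, and gene positions are GENCODE vM21.

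The members and the 30 gene lists were chosen with earlier results of these data known. Named genes are the 10 highest and 10 lowest between conditions (at least 200 UMIs, detected in at least 20 cells of the higher library), the 15 highest and 10 lowest of dividing over other outside the cell cycle lists, the genes of the rule and the most abundant of each list. Other genes named were chosen after their values were seen. Some genes that these rules take are not reported here.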

Additional observations from a re-analysis of the deposited data

How the results depend on the processing

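The count of genes at least 2-fold apart between GA and control members depended on how many UMIs a gene needed. It was 188 with at least 200 UMIs (74 higher and 114 lower with GA), 516 with at least 50 (180 and 336), 85 with at least 500 (44 and 41) and 39 when each cell was thinned to 10000 UMIs (19 and 20), where fewer genes reach the minimum. Under the other alternatives it stayed between 150 and 241. The counts of genes 2-fold higher or lower in dividing than in other mesenchymal cells stayed within 1.5 times of 627 and 600 under every alternative, from 495 to 771 and from 433 to 789. Single values moved more. Over 70 log2 ratios, those of the genes highest and lowest between conditions and, in each library, between dividing and other cells, 256 of 360 values under an alternative lay more than 0.1 from the value given, 83 of them by over 1.5 times, and 0 changed sign. The most abundant genes of the lists were recomputed only without the richest 6% of members, where Hbb-bs went from 1.58 to -0.88. Of 517 list medians, 193 lay more than 0.1 away, 27 by over 1.5 times, and 54 changed sign, 5 of them from a median at least 1 from 0: the lymphocyte markers of dividing over other control cells (-2.06) were at 0.31 against cells without a UMI of the 3 genes and at 0.30 without the highest doublet scores, the erythroid markers of dividing over other GA cells (-1.32) at 0.88 without those scores, and between conditions the endothelial markers (1.52, 1 gene) at -1.62 with a minimum of 50 UMIs and the erythroid markers (1.58, 1 gene) at -0.88 with the richest 6% of members left out per gene. The last alternative and lifting the upper limits on UMIs and genes were chosen after seeing the data. The causes were not tested. No replicate could be left out, and no paired analysis was possible because each condition is 1 library.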
